A study of Mus musculus with 12 samples.

Results

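Opposite-strand long non-coding RNAs (lncRNAs) are transcripts named after a coding gene with the suffix "os", because they are read from the strand opposite to it. The count table is of brown adipose tissue (iBAT), which the study's text defines as interscapular. Of its 61210 genes, 37382 were of the types lncRNA or noncoding, and 285 of these carried such a name. The 44 lncRNAs described here were those with a sum of at least 120 counts over the 12 libraries, with 1 gene left out by the rule. They were thus chosen by their summed counts, which a single high group can supply. Without the counts of its own highest group, 8 of the 44 would have been under the limit, of which 6 were tested and Tmem74bos and Tmem147os were called in a comparison. Just inside the limit were Rsf1os2 with 126 counts, Zmiz1os1 with 125 and Atad3aos with 121, and just outside were Dhrs13os with 101, Sox5os4 with 100 and Tbx3os1 with 97. Total RNA was sequenced from wild type C57BL/6N mice, all 20 weeks old, in 4 groups of 3 mice. Control mice ate a normal chow diet (NCD), and the others had a high-fat diet (HFD) during their last 12 weeks, starting when they were 8 weeks old. On each diet one group was kept at 22 °C and another was moved to 4 °C for 24 h. The labels name the tissue inguinal brown fat, whereas the study's text calls iBAT interscapular.

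Antisense lncRNA genes occur in several arrangements. Some start head to head with the coding gene, so that both transcripts leave a common promoter region in opposite directions, while others run into or through the body of the coding gene and share bases with its exons. Ctcflos is known as a lncRNA of brown and beige fat cells, and for most of the other lncRNAs named here no role in this tissue is established. Brown fat burns lipid for heat when cold activates its sympathetic nerves, and HFD feeding changes the same tissue over weeks, so each lncRNA was compared between temperatures on each diet and between diets at each temperature, together with its coding partner.

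In the GENCODE M21 annotation of GRCm38 all 44 lncRNAs lay on the strand opposite to the partner. For 15 of them the 5′ ends of lncRNA and partner were 1 kb or less apart, with distances from 7 to 845 bases. The 5′ end is the outermost one of the annotated gene, also where a gene has several starts. A further 24 overlapped the partner with 5′ ends farther apart, and 5 did not overlap it. Exons of lncRNA and partner shared bases in 28 cases, with a median over all 44 of 3.8% of the exonic length and a maximum of 63.4% in Frmd8os. Sox6os, Pitpnm2os1 and Rab26os lay whole inside an intron of the partner. The sources used here do not state whether strand was used in counting, so reads over shared exonic bases, or from unspliced partner RNA over such an intron, cannot be assigned to one strand with certainty.

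The start regions of 4 lncRNAs that changed with cold are printed, and those of Sox6os, Tmem74bos and Map2k3os stand for arrangements given above. All 4 regions come from RefSeq on GRCm38.p6, run from 5′ to 3′ on the strand given, and show in capitals the GC box (GGGCGG) and the CCAAT box (CCAAT) wherever either occurs on one strand or the other. The first 3 hold 250 bases before and 50 after the RefSeq start, and the last is the stretch of 165 bases between the annotated starts of Map2k3os and Map2k3.
Ctcflos, chr2:173124499-173124798, plus strand: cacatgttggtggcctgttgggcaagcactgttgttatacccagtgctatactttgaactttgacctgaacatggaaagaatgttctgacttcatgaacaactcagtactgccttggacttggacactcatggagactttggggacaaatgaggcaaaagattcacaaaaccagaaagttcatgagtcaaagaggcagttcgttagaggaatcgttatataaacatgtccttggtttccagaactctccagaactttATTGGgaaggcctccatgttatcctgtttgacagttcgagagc
Sox6os, chr7:116031729-116032028, plus strand: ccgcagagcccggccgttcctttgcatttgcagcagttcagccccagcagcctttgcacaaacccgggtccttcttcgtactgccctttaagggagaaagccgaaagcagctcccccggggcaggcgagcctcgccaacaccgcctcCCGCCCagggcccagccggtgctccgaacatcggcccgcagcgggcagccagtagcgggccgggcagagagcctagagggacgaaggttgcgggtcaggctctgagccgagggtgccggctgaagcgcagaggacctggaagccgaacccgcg
Tmem74bos, chr2:151686084-151686383, minus strand: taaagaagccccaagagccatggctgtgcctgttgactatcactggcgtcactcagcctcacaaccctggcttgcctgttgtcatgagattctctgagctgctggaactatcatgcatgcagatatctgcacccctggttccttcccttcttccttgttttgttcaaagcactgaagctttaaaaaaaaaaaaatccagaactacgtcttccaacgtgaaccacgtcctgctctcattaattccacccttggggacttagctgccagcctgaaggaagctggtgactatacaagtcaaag
Map2k3os to Map2k3, chr11:60931868-60932032, plus strand: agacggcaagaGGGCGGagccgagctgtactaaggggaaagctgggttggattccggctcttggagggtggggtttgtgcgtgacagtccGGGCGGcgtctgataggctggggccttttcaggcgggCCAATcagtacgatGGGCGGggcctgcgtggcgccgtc

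The Ctcflos region was 43.3% G and C with 3 CpG and 1 CCAAT box, and it lies outside the gene body of Ctcfl (173093609 to 173119525). It therefore does not show the overlap of both genes. GENCODE gives Ctcflos 4 different starts, with which the RefSeq start was not compared. The Sox6os region was 68.0% G and C with 26 CpG and 1 GC box. The region shared by Map2k3os and Map2k3 was 65.5% G and C and held 3 GC boxes and 1 CCAAT box, whereas the Tmem74bos region held neither motif. Of the 44 lncRNAs 34 had a RefSeq start region of this length, with 48 regions in all, of which 19 held a GC box and 16 a CCAAT box. Over all 32851 RefSeq start regions of that length, 35.7% held a GC box and 37.4% a CCAAT box. The cAMP response element TGACGTCA was found in 0 of the 48, against 1.79% of all regions. The motifs were searched on both strands and a match is a string of letters only.

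Libraries held 15136861 to 46740702 counts, and the 4 libraries of replicate 3, which the labels put in a second batch, were deeper than the 8 of replicates 1 and 2. The brown adipocyte list (8 genes, among them Ucp1) summed to 6450 to 8133 CPM in NCD at 22 °C and to 20213 to 23503 in NCD at 4 °C, while the epithelial list stayed at or under 0.746 in every library. Skeletal muscle transcripts differed between libraries of the same group. The 9 genes of that list summed to 4980.4 to 16492 CPM in replicate 2 of both NCD groups and replicate 3 of both HFD groups, against 534 to 3351 CPM in the other 8 libraries. CPM are counts scaled to a common library total after TMM normalisation, as edgeR gives them. Of the 44 lncRNAs 42 had enough counts to be tested, and Etaa1os and Zmiz1os1 did not. Differences are log2 fold changes (log2FC) ± standard error from 1 edgeR fit of all 16737 tested genes, and a gene was called at a Benjamini-Hochberg adjusted p under 0.05 and an absolute log2FC over 0.5. Groups of 3 libraries often do not overlap in CPM. Cold gave no overlap for 28.6% of the 42 on NCD (27.9% of all tested genes) and 35.7% on HFD (30%). HFD gave 26.2% at 22 °C (25.6% of all tested genes) and 28.6% at 4 °C (24.6%).

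Averaged over the diets, cold treatment changed 11 of the 42 lncRNAs (26.2%), where the background was 12.7% of all tested genes and 11.9% of all tested lncRNA genes. The background was 6.09% for rises and 6.6% for falls. Ctcflos, Map2k3os, Ppp1r18os and Tmem74bos rose, and Sox6os, Zeb2os, Sp3os, Hoxb3os, Lppos, Chn1os3 and Man2c1os fell. Tmem74bos held 98 counts without HFD at 4 °C, under the limit by which the lncRNAs were chosen. It counts among the 11 and among the 4 called on HFD given below. The 42 hold 6 lncRNAs, Tmem74bos included, that were under the limit without their highest group. The shares were not computed without them. The median log2FC of the 42 was -0.31, against -0.24 over the tested lncRNA genes and -0.03 over all tested genes. On NCD alone 2 of 42 were called (4.76%), with a background of 6.27% (3.38% of lncRNA genes), and on HFD alone 4 of 42 (9.52%), with a background of 9.58% (6.55% of lncRNA genes), so that on each diet the share was near that of all genes. In DESeq2, 5 of 34 lncRNAs with an adjusted p were called on NCD (9.44% of all genes), 9 of 40 on HFD (12.3% of all genes) and 10 of 40 for the average (13.8% of all genes). With replicates paired within diet, 2, 7 and 13 of 42 were called, against 8.86%, 12.9% and 15.3% of all genes. Within the first batch of 8 libraries, all 11 averaged values kept their sign, and Ctcflos (1.42, adjusted p = 0.00357), Ppp1r18os (1.82, adjusted p = 0.0108), Sox6os (-0.84, adjusted p = 0.0244), Sp3os (-0.72, adjusted p = 0.028) and Hoxb3os (-0.95, adjusted p = 0.0263) passed. Without the 4 libraries rich in muscle transcripts the signs were again kept, and Ctcflos (1.27), Ppp1r18os (1.40), Sox6os (-0.79), Sp3os (-0.91) and Map2k3os (0.76) passed. The second batch holds 1 library a group and gives no value. In bulk tissue fewer cells of a type and less RNA per cell cannot be told apart.

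**Figure D1:**
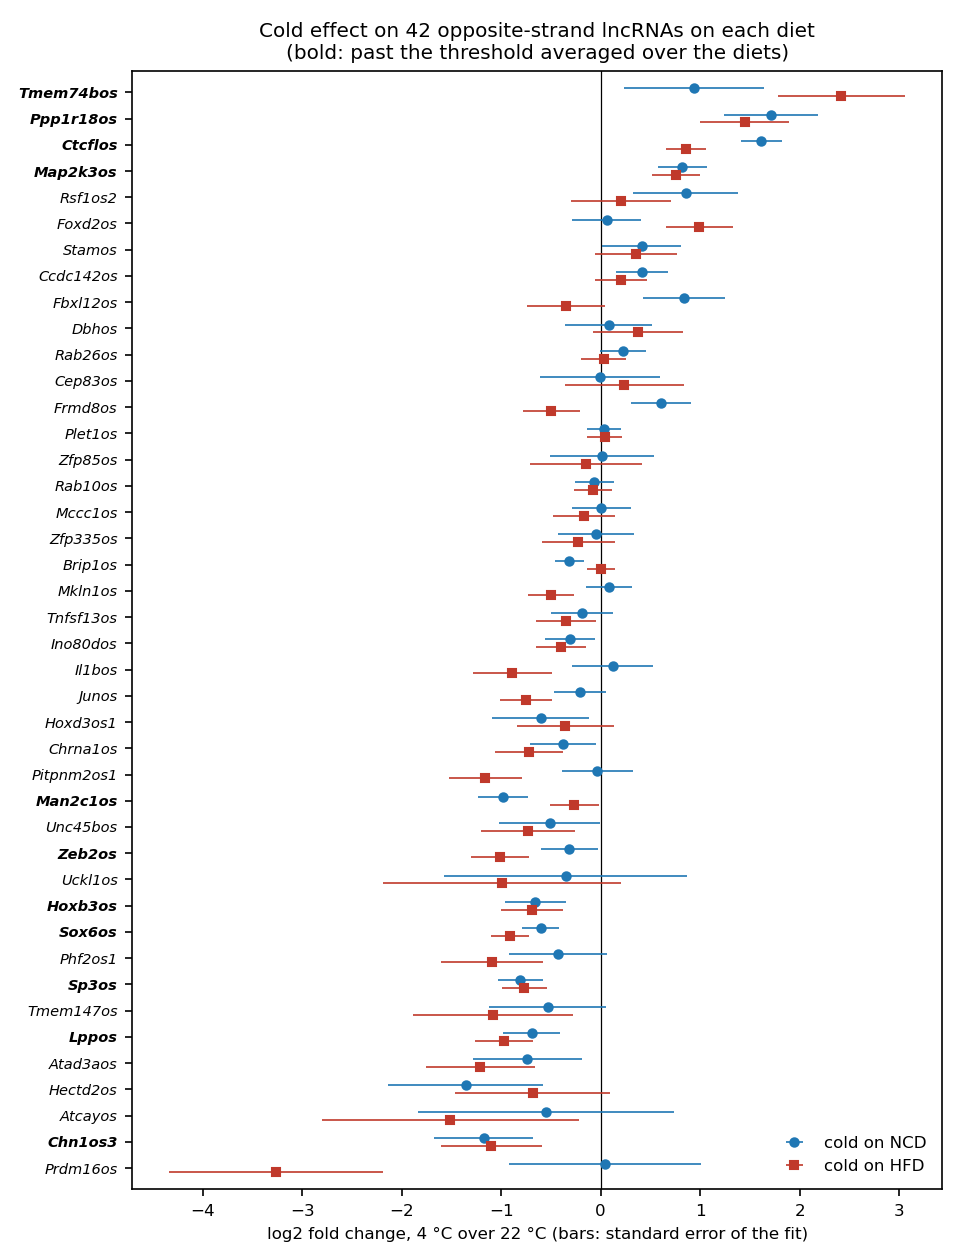
Log2 fold change of 4 °C over 22 °C (x axis) for the 42 tested opposite-strand lncRNAs (y axis, ordered by the change averaged over the diets), with NCD as circles, HFD as squares and the standard error of the fit as bars. Names in bold are the 11 called for the average, of which Tmem74bos, Ppp1r18os, Ctcflos and Map2k3os lie to the right of 0 on both diets and the other 7 to the left.

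Among partners that encode transcription regulators, Ctcflos carried the clearest change. It lies on chromosome 2 from 173110818 to 173133204 (GRCm38, plus strand), and 3.35% of its exonic bases overlap exons of Ctcfl, a paralogue of the insulator protein CTCF that is best known from the testis. With 44956 counts in sum it had more than any of the other 43, followed by Brip1os with 8040. Ctcflos stood at 48.3, 59.5 and 54.1 CPM in NCD at 22 °C and at 148, 216 and 131 CPM in NCD at 4 °C. On HFD it stood at 117, 133 and 143 CPM at 22 °C and at 286, 246 and 182 CPM at 4 °C. Every cold library lay above every library at 22 °C of the same diet, and every HFD library at 22 °C lay above every NCD library at 22 °C, whereas the diets overlapped at 4 °C. The log2FC of cold was 1.61 ± 0.21 on NCD (adjusted p = 0.00141) and 0.86 ± 0.20 on HFD (adjusted p = 0.0202). HFD raised it by 1.28 ± 0.20 at 22 °C (adjusted p = 0.00967), and at 4 °C the log2FC was 0.53 ± 0.20 (adjusted p = 0.146). Its coding partner Ctcfl stood between 0.539 and 1.88 CPM over the 12 libraries, and its averaged cold log2FC was -0.02 ± 0.29 (adjusted p = 0.978). In the fits that left out 1 library each, the cold effect on HFD was lost without HFD 22 °C replicate 1, HFD 22 °C replicate 2 or HFD 4 °C replicate 1 (log2FC over all 12 such fits 0.73 to 1.03, adjusted p up to 0.066). The HFD effect at 22 °C was lost without NCD 22 °C replicate 1 or 3 (log2FC 1.18 to 1.35, adjusted p up to 0.0608).

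Sox6os and its partner fell together. The single transcript of Sox6os lies at 116031979 to 116032550 of chromosome 7 on the plus strand, inside an intron of Sox6, which encodes a transcription factor of the SRY-box family known from muscle fibre and cartilage development. Sox6os stood at 5.47, 5.46 and 5.22 CPM in NCD at 22 °C, at 2.92, 3.71 and 3.98 CPM in NCD at 4 °C, at 4.12, 5.44 and 4.57 CPM in HFD at 22 °C and at 2.12, 2.77 and 2.61 CPM in HFD at 4 °C. On both diets all cold libraries lay below all libraries at 22 °C. The log2FC was -0.76 ± 0.13 averaged over the diets (adjusted p = 0.00233), -0.91 ± 0.19 on HFD (adjusted p = 0.0107) and -0.60 ± 0.19 on NCD (adjusted p = 0.0752). The average and the HFD value passed in all 12 fits that left out a library. Sox6 itself stood at 87.6 to 112 CPM in NCD at 22 °C, 64.0 to 93.0 in NCD at 4 °C, 93.8 to 107 in HFD at 22 °C and 49.4 to 63.5 in HFD at 4 °C. Its averaged log2FC was -0.59 ± 0.11 (adjusted p = 0.00331). The cold effect of Sox6os minus that of Sox6 was -0.16 on the log2 CPM scale (exact permutation p = 0.435).

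Zeb2os shares 653 of its exonic bases (32.81%) with exons of Zeb2, a zinc finger repressor known from epithelial to mesenchymal transition. It stood at 4.23, 2.50 and 3.38 CPM in NCD at 22 °C, at 3.497, 2.00 and 2.63 CPM in NCD at 4 °C, at 2.90, 2.25 and 2.94 CPM in HFD at 22 °C and at 1.13, 1.76 and 1.14 CPM in HFD at 4 °C. The NCD groups overlapped, and the 3 libraries of HFD at 4 °C lay below all 9 others. The log2FC of cold was -1.01 ± 0.29 on HFD (adjusted p = 0.048), -0.31 ± 0.29 on NCD (adjusted p = 0.595) and -0.66 ± 0.20 averaged (adjusted p = 0.0399). With 1 library left out, the HFD value passed in 3 of 12 fits, those without NCD 4 °C replicate 1 or 2 or HFD 4 °C replicate 2 (log2FC -1.24 to -0.88, adjusted p up to 0.148). The average passed in 4 of 12, those without NCD 22 °C replicate 2, NCD 4 °C replicate 1, HFD 22 °C replicate 2 or HFD 4 °C replicate 2 (log2FC -0.78 to -0.55, adjusted p up to 0.0943). Zeb2 fell by 0.77 on the log2 scale (standard error 0.14, adjusted p = 0.00296) and the difference between both cold effects was 0.10 (exact permutation p = 0.72). By diet, Zeb2 was called on NCD (-0.87, adjusted p = 0.0229) and narrowly not on HFD (-0.66, adjusted p = 0.0526), where Zeb2os was called. Such a difference in calls is not a difference between diets. In edgeR the cold effect on HFD minus that on NCD did not pass for either gene. It was 0.21 ± 0.28 for Zeb2 (adjusted p = 0.928) and -0.70 ± 0.41 for Zeb2os (adjusted p = 0.815). The log2FC of HFD at 4 °C was 0.18 for Zeb2 (adjusted p = 0.647) and -1.02 for Zeb2os (adjusted p = 0.0693). Of the mesenchymal list 4 of 8 genes were called lower with cold on NCD, 0 of 8 on HFD and 4 of 8 averaged. Of all tested genes 6.27%, 9.58% and 12.7% were called in these comparisons, in either direction. The list summed to 1104 to 1693 CPM in NCD at 22 °C, 525 to 607 in NCD at 4 °C, 578 to 818 in HFD at 22 °C and 412 to 798 in HFD at 4 °C. Its part in the fall of Zeb2os was not tested.

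Sp3os fell, and its cold effect differed from that of its partner. Sp3 encodes a factor that binds GC boxes, and its exons share 109 bases with Sp3os. Sp3os stood at 3.73, 4.13 and 4.48 CPM in NCD at 22 °C, at 2.87, 2.59 and 1.68 CPM in NCD at 4 °C, at 3.09, 3.08 and 2.91 CPM in HFD at 22 °C and at 1.67, 1.58 and 2.05 CPM in HFD at 4 °C. The cold libraries lay below those at 22 °C on each diet, and HFD lay below NCD at 22 °C. The averaged log2FC was -0.79 ± 0.16 (adjusted p = 0.0054) and passed in all 12 fits that left out a library, with -0.81 on NCD (adjusted p = 0.0537) and -0.77 on HFD (adjusted p = 0.0508). Sp3 had an averaged log2FC of 0.02 ± 0.09 (adjusted p = 0.929). The cold effect of Sp3os was lower than that of Sp3 by -0.79 on the log2 scale (exact permutation p = 0.005, the smallest this test can give).

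Hoxb3os, which shares 2250 exonic bases (53.56%) with the homeobox gene Hoxb3 and 953 with Hoxb2, had an averaged log2FC of -0.67 ± 0.22 (adjusted p = 0.0475). It passed in 3 of 12 fits with 1 library left out, those without replicate 3 of NCD 4 °C, HFD 22 °C or HFD 4 °C (log2FC -0.81 to -0.54, adjusted p up to 0.119). Its groups overlapped on both diets.

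Prdm16os starts 703 bases from Prdm16, which encodes a transcriptional regulator that sets brown fat identity. Its counts were 178, 174 and 598 in NCD at 22 °C, 273, 198 and 419 in NCD at 4 °C, 316, 77 and 516 in HFD at 22 °C and 0, 0 and 156 in HFD at 4 °C. A library with 0 counts allows up to 3. All libraries of HFD at 4 °C lay below the 9 others in CPM, at 0, 0 and 3.64 against 4.03 to 20.4. The log2FC of cold on HFD was -3.26 ± 1.07 and did not pass (adjusted p = 0.0732), and with replicates paired within diet it was -3.88 and passed (adjusted p = 0.0194). The paired fit also passed the averaged change of Prdm16os (-1.92, adjusted p = 0.0324), which without pairing was -1.61 ± 0.71 (adjusted p = 0.134). Prdm16 stood at 49.3, 50.9 and 31.5 CPM in HFD at 4 °C and at 18.6 to 46.96 CPM in HFD at 22 °C, and its averaged log2FC was 0.30 ± 0.25 (adjusted p = 0.427). The cold effects of lncRNA and partner differed by -2.89 (exact permutation p = 0.07).

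Among partners of signalling and of the cytoskeleton, Map2k3os and Ppp1r18os rose. Map2k3 encodes the kinase MKK3 upstream of p38, and the starts of both genes are 166 bases apart in the region printed above. Map2k3os stood at 4.04, 2.79 and 3.09 CPM in NCD at 22 °C, at 4.76, 7.06 and 5.68 CPM in NCD at 4 °C, at 3.67, 4.76 and 5.03 CPM in HFD at 22 °C and at 10.04, 6.16 and 6.62 CPM in HFD at 4 °C. The temperatures did not overlap on either diet. The averaged log2FC was 0.79 ± 0.17 (adjusted p = 0.00779), and it passed in all 12 fits that left out a library, while the single-diet values were 0.82 on NCD (adjusted p = 0.0665) and 0.75 on HFD (adjusted p = 0.0668). For Map2k3 it was 0.26 ± 0.28 (adjusted p = 0.549), and the difference of 0.55 did not pass (exact permutation p = 0.225).

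Ppp1r18os overlaps Ppp1r18, which encodes a regulatory subunit of protein phosphatase 1 that binds actin, by 70 exonic bases, and the nuclear envelope gene Nrm by 200. Its counts were low, at 4, 6 and 16 in NCD at 22 °C, 20, 28 and 27 in NCD at 4 °C, 9, 14 and 13 in HFD at 22 °C and 47, 34 and 40 in HFD at 4 °C. In CPM every cold library lay above every library at 22 °C of the same diet (0.639 to 1.65 against 0.249 to 0.392 on NCD, and 0.932 to 2.12 against 0.367 to 0.732 on HFD). The averaged log2FC was 1.58 ± 0.33 (adjusted p = 0.00565) and passed in all 12 fits with a library left out. Ppp1r18 had 0.18 ± 0.17 (adjusted p = 0.488), and the lncRNA moved above it by 1.22 (exact permutation p = 0.005).

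Lppos and Chn1os3 fell. Lpp encodes a LIM protein of focal adhesions, and the 5′ ends of both genes are 81 bases apart with 82 shared exonic bases. Lppos stood at 3.36, 4.65 and 4.29 CPM in NCD at 22 °C, at 1.83, 2.82 and 2.91 CPM in NCD at 4 °C, at 3.99, 4.03 and 3.59 CPM in HFD at 22 °C and at 1.22, 2.77 and 1.91 CPM in HFD at 4 °C, without overlap between temperatures on either diet. Its averaged log2FC was -0.83 ± 0.21 (adjusted p = 0.0143) and passed in all 12 fits with a library left out. On HFD the value was -0.97 ± 0.29 (adjusted p = 0.0536), and -1.02 with replicates paired within diet (adjusted p = 0.0314). Lpp had -0.26 ± 0.12 (adjusted p = 0.152), and the difference was -0.58 (exact permutation p = 0.07).

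Chn1os3 had 3 to 54 counts a library, with CPM of 0.871, 0.814 and 1.32 in NCD at 22 °C, 0.172, 0.353 and 0.734 in NCD at 4 °C, 0.515, 0.941 and 0.932 in HFD at 22 °C and 0.540, 0.352 and 0.256 in HFD at 4 °C. The temperatures did not overlap on NCD and overlapped on HFD. The averaged log2FC was -1.14 ± 0.35 (adjusted p = 0.0412), and it passed in 3 of 12 fits, those without NCD 4 °C replicate 3, HFD 22 °C replicate 1 or HFD 4 °C replicate 1 (log2FC -1.495 to -0.95, adjusted p up to 0.112). Chn1, which encodes the Rac GTPase-activating protein chimerin, stood at 40.0 to 56.4 CPM in NCD at 22 °C, 11.3 to 19.5 in NCD at 4 °C, 13.1 to 25.3 in HFD at 22 °C and 7.43 to 10.4 in HFD at 4 °C. Chn1 fell with cold by 1.30 on the log2 scale (standard error 0.19, adjusted p = 0.000877), and lncRNA and partner differed by 0.20 (exact permutation p = 0.63). HFD averaged over the temperatures also lowered Chn1 (log2FC -1.20 ± 0.19, adjusted p = 0.00337), where Chn1os3 had -0.29 ± 0.35 (adjusted p = 0.615).

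For Rab10os no change was detected. Rab10 encodes a GTPase of vesicle transport that acts on glucose transporter GLUT4. Rab10os had 153 to 645 counts and 9.86 to 15.3 CPM over the 12 libraries, and its cold log2FC was -0.06 ± 0.19 on NCD and -0.08 ± 0.19 on HFD. The partner, with 151 to 173 CPM, had an averaged log2FC of 0.06 ± 0.06 (adjusted p = 0.512).

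Among lncRNAs of enzymes and membrane proteins, Tmem74bos rose in the cold on HFD. HFD at 4 °C supplied 259 of its 357 counts, and the other 9 libraries together held 98, under the limit of 120, so it was among the lncRNAs described because of the group in which it was high, and its calls do not support a statement about the lncRNAs as a group. It lies on chromosome 2 from 151679361 to 151686339 on the minus strand, and its 5′ end is 15669 bases from that of Tmem74b, which it does not overlap. Its counts were 6, 1 and 12 in NCD at 22 °C, 5, 2 and 38 in NCD at 4 °C, 8, 9 and 17 in HFD at 22 °C and 51, 33 and 175 in HFD at 4 °C. All 3 libraries of HFD at 4 °C lay above the 9 others, at 1.45 to 4.08 CPM against 0.0581 to 0.900. The log2FC of cold was 2.42 ± 0.64 on HFD (adjusted p = 0.0335) and 0.94 ± 0.71 on NCD (adjusted p = 0.504), and HFD at 4 °C gave 2.45 ± 0.63 (adjusted p = 0.0483). The difference between both cold effects was 1.48 ± 0.96 (adjusted p = 0.826). Tmem74b stood at 0.294 to 1.05 CPM with an averaged cold log2FC of 0.02 ± 0.24 (adjusted p = 0.973), and the lncRNA moved above it by 1.36 (exact permutation p = 0.03, and 0.0625 with replicates paired).

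These calls of Tmem74bos depended on single libraries. The cold call on HFD was lost without any of the 3 libraries of HFD 22 °C or without HFD 4 °C replicate 1 or 3 (log2FC 1.94 to 2.71, adjusted p up to 0.117). The average over the diets was 1.68 (adjusted p = 0.0272) and was lost without replicates 2 or 3 of NCD 22 °C or of HFD 22 °C, or without replicate 3 of NCD 4 °C or HFD 4 °C (1.09 to 1.88, adjusted p up to 0.139). The diet calls, at 4 °C and averaged (1.70, adjusted p = 0.0378), each passed only in the fits without NCD 4 °C replicate 3 or HFD 4 °C replicate 2. The log2FC of Tmem74bos over all 12 fits was 1.98 to 3.66 at 4 °C, with adjusted p up to 0.155, and 1.45 to 2.30 averaged, with adjusted p up to 0.0826.

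Man2c1os fell in the cold on NCD. Man2c1 encodes a cytosolic alpha-mannosidase, and the lncRNA shares 461 exonic bases (21.37%) with it and 205 with Sin3a. It stood at 1.12, 1.34 and 1.32 CPM in NCD at 22 °C, at 0.745, 0.530 and 0.639 CPM in NCD at 4 °C, at 1.16, 1.20 and 1.33 CPM in HFD at 22 °C and at 1.13, 1.06 and 0.909 CPM in HFD at 4 °C. On both diets the cold libraries lay below those at 22 °C, by a small margin on HFD. The log2FC was -0.98 ± 0.25 on NCD (adjusted p = 0.0399), -0.26 ± 0.24 on HFD (adjusted p = 0.514) and -0.62 ± 0.18 averaged (adjusted p = 0.027). With replicates paired within diet both calls were lost (NCD adjusted p = 0.0985, average adjusted p = 0.0783). With 1 library left out, the NCD call passed without HFD 22 °C replicate 3, HFD 4 °C replicate 1 or HFD 4 °C replicate 3 and in none of the other 9 fits (log2FC -1.08 to -0.87, adjusted p up to 0.134). The average passed without replicate 1 of any of the 4 groups or without HFD 4 °C replicate 2 (log2FC -0.66 to -0.57, adjusted p up to 0.0683).

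Mccc1os was called lower on HFD averaged over the temperatures, and no change with cold was detected. Mccc1 encodes a subunit of methylcrotonoyl-CoA carboxylase in leucine breakdown. Mccc1os stood at 0.995, 1.51 and 1.44 CPM in NCD at 22 °C, at 1.38, 0.942 and 1.63 CPM in NCD at 4 °C, at 0.902, 0.784 and 0.621 CPM in HFD at 22 °C and at 0.585, 0.793 and 0.653 CPM in HFD at 4 °C. HFD libraries lay below NCD libraries at each temperature. The log2FC of HFD averaged over the temperatures was -0.89 ± 0.22 (adjusted p = 0.0228), and that of cold averaged over the diets was -0.08 ± 0.22 (adjusted p = 0.927). HFD gave -0.80 ± 0.31 at 22 °C (adjusted p = 0.207) and -0.97 ± 0.31 at 4 °C (adjusted p = 0.0893), and neither passed. The averaged diet value did not pass in the first batch alone (-0.66, adjusted p = 0.205) or without the 4 libraries rich in muscle transcripts (-0.85, adjusted p = 0.0906). The diet call was lost without NCD 22 °C replicate 2 or 3, NCD 4 °C replicate 3, HFD 22 °C replicate 3 or HFD 4 °C replicate 1 (log2FC -0.98 to -0.80, adjusted p up to 0.0565). Mccc1 was called lower with cold on HFD (-0.51 ± 0.14, adjusted p = 0.0435), which passed in 2 of 12 fits with a library left out. Its averaged cold log2FC was -0.39 ± 0.10 (adjusted p = 0.02), under the minimum fold. For HFD averaged over the temperatures Mccc1 had -0.16 ± 0.10 (adjusted p = 0.328).

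Tmem147os was lower on HFD and was one of the least counted lncRNAs. The NCD libraries supplied 130 of its 150 counts and the HFD libraries 20, so it passed the limit of 120 through the diet in which it was high, and its calls too do not support a statement about the group. Its counts were 11, 20 and 45 in NCD at 22 °C, 11, 11 and 32 in NCD at 4 °C, 7, 2 and 3 in HFD at 22 °C and 0, 3 and 5 in HFD at 4 °C. HFD libraries lay below NCD libraries at each temperature. The log2FC of HFD averaged over the temperatures was -2.62 ± 0.49 (adjusted p = 0.00694), which passed in all 12 fits with a library left out. At 4 °C it was -2.89 ± 0.72 (adjusted p = 0.0419) and passed only without HFD 22 °C replicate 1 or 3 (log2FC -3.25 to -2.40, adjusted p up to 0.126), and at 22 °C it was -2.34 ± 0.67 (adjusted p = 0.101). The table holds other genes of that name. One that joins Tmem147os with Gm26935 had 1986 counts in sum and a log2FC of HFD of -0.11 ± 0.16 (adjusted p = 0.667), and another had 49 counts in sum. How reads of this locus were divided between these genes was not tested. Of the 456 exonic bases of Tmem147os, 279 lie over exons of Sbsn on the same strand. Tmem147, which encodes a membrane protein of the endoplasmic reticulum, fell with HFD by 0.51 on the log2 scale (standard error 0.07, adjusted p = 0.00165), and by 0.49 to 0.57 with 1 library left out.

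Brip1os, named after the DNA repair helicase gene Brip1, starts 177 bases from it and shares 512 exonic bases with Ints2 and 800 with Med13. It stood at 34.6, 24.99 and 25.2 CPM in NCD at 22 °C, at 22.8, 21.5 and 23.7 CPM in NCD at 4 °C, at 29.6, 28.3 and 23.4 CPM in HFD at 22 °C and at 24.8, 27.2 and 29.4 CPM in HFD at 4 °C. The NCD libraries at 4 °C lay below those at 22 °C, with a log2FC of -0.31 ± 0.14 that did not pass (adjusted p = 0.231), and on HFD it was 0.01 ± 0.14. Brip1 had an averaged cold log2FC of 0.41 ± 0.27 (adjusted p = 0.307).

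**Figure D2:**
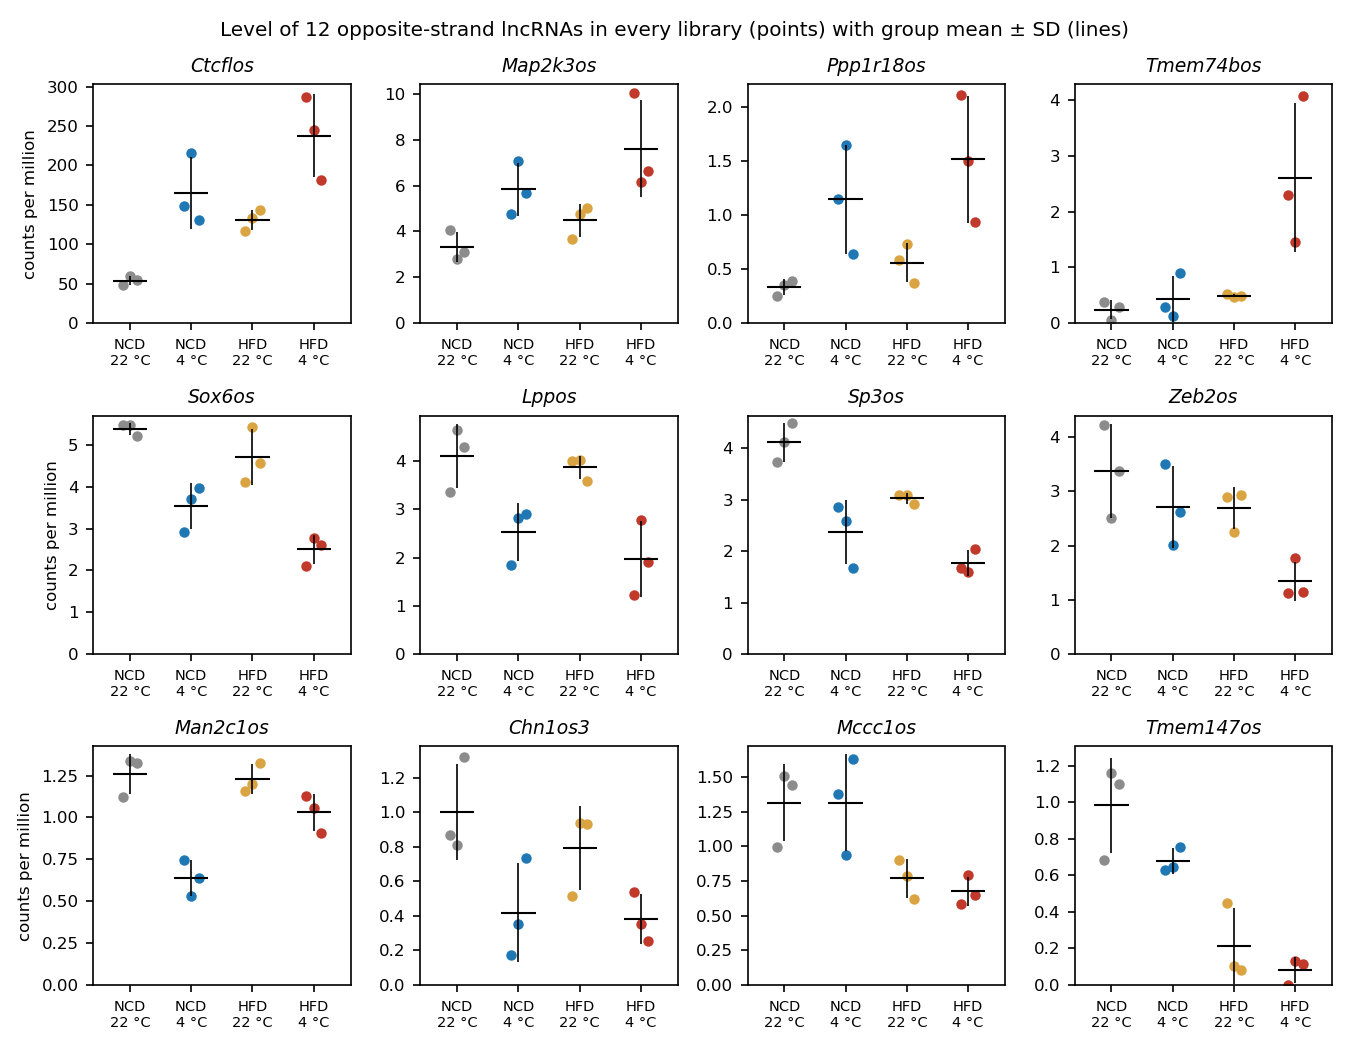
CPM (y axis, linear from 0) of 12 opposite-strand lncRNAs called in at least 1 comparison, in the 4 groups (x axis), with 1 point a library and lines for the mean and SD of 3 libraries. Ctcflos steps up with cold and with HFD, Tmem74bos is highest in HFD at 4 °C, and Tmem147os and Mccc1os are lower in both HFD groups.

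Atcayos and Uckl1os followed single libraries rather than groups. Atcay encodes the neuronal protein caytaxin and had 2 counts in sum, so Atcayos has no partner to compare, and 270 of its exonic bases lie opposite exons of Nmrk2. Atcayos stood at 2.36, 19.4 and 2.82 CPM in NCD at 22 °C, at 2.35, 13.2 and 1.35 CPM in NCD at 4 °C, at 1.48, 1.67 and 24.1 CPM in HFD at 22 °C and at 0.855, 1.28 and 7.34 CPM in HFD at 4 °C. Uckl1os was high in the same libraries, at 5.41, 4.12, 5.42 and 2.31 CPM, against 0.379 to 0.732 CPM in the other 8. These are the 4 libraries with the most skeletal muscle transcripts, at 15656, 8459, 16492 and 4980.4 CPM of the list, so muscle transcripts and both lncRNAs were high together. The part of muscle in these values was not tested. The averaged cold log2FC was -1.03 ± 0.91 for Atcayos (adjusted p = 0.456) and -0.67 ± 0.85 for Uckl1os (adjusted p = 0.617). With replicates paired within diet, Atcayos passed with -0.85 (adjusted p = 0.0158), and on HFD with -1.13 (adjusted p = 0.0372). The 9 muscle genes all had a negative averaged cold log2FC, with a median of -1.38, and 0 of them were called by edgeR, with 2 at an unadjusted p under 0.05.

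Hectd2os shares 1834 exonic bases (46.12%) with Hectd2, which encodes a ubiquitin ligase. Its counts were 60, 65 and 127 in NCD at 22 °C, 26, 33 and 33 in NCD at 4 °C, 13, 14 and 96 in HFD at 22 °C and 6, 4 and 92 in HFD at 4 °C. On NCD every cold library lay below every library at 22 °C, while on HFD both replicates 3, which had more muscle transcripts, lay above the other 4 libraries. The averaged log2FC was -1.02 ± 0.55 (adjusted p = 0.215), and with replicates paired within diet it was -1.25 and passed (adjusted p = 0.0114), as did the NCD value of -1.43 (adjusted p = 0.0407).

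**Figure D3:**
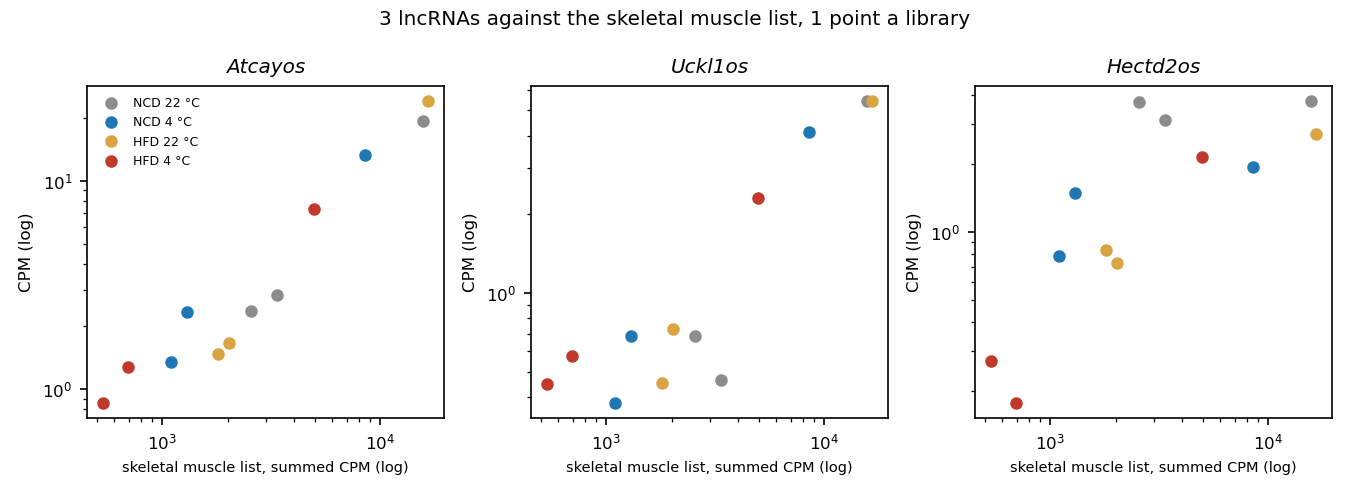
CPM of Atcayos, Uckl1os and Hectd2os (y axes, log scale) against the summed CPM of 9 skeletal muscle genes (x axes, log scale), with 1 point a library coloured by group. For Atcayos and Uckl1os the 4 libraries with 4980.4 CPM or more of muscle transcripts lie above the other 8, and for Hectd2os the NCD libraries at 22 °C are high at any muscle level.

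Diet was compared at each temperature. HFD at 22 °C called 1 of 42 (2.38%, background 2.09%), which was Ctcflos, and HFD at 4 °C called 2 (4.76%, background 4.75%), Tmem74bos and Tmem147os. Averaged over the temperatures, 5 of 42 were called (11.9%, background 7.8%, or 6.93% of lncRNA genes), where rises made up 4.24% and falls 3.55% of all genes. Ctcflos (0.90 ± 0.14, adjusted p = 0.00308), Tmem74bos and Frmd8os rose, and Mccc1os and Tmem147os fell. Without their highest group Tmem74bos held 98 counts and Tmem147os 74, under the limit by which the lncRNAs were chosen. They were the 2 calls at 4 °C and were among the 5 averaged calls. The shares at 4 °C and for the average therefore do not support a statement about the lncRNAs as a group. The call of Frmd8os (0.70 ± 0.21, adjusted p = 0.0452) passed in 1 of 12 fits with a library left out, the one without NCD 4 °C replicate 2 (log2FC 0.57 to 0.82, adjusted p up to 0.108), and 63.4% of its exonic bases lie over exons of Frmd8. The median log2FC of the 42 for the averaged diet was -0.19, against 0.23 over the tested lncRNA genes and 0.03 over all tested genes.

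Whether the cold effect differed between the diets was tested with the interaction of temperature and diet. It called 0 of 42 lncRNAs in edgeR, where the background was 0% of 16737 genes, and 0 in DESeq2. At an unadjusted p under 0.05 it gave 4 lncRNAs (Frmd8os, Ctcflos, Prdm16os and Pitpnm2os1), and 6.52% of all genes. The value was -0.75 ± 0.28 for Ctcflos (adjusted p = 0.698) and -3.31 ± 1.42 for Prdm16os (adjusted p = 0.742), each a smaller or more negative cold effect on HFD. At an adjusted p under 0.05 the test over all 4 groups called 11 lncRNAs (background 24.3%), among them Tmem74bos and Tmem147os, which were chosen through their highest group. The same test at an adjusted p under 0.001 called Ctcflos alone (adjusted p = 0.000401), 2.38% of the 42 with a background of 2.55%. In DESeq2 it called 6 of 40, against 15.8% of all genes.

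Of the 44 partners 42 were in the table, and 37 of these were tested. Cold averaged over the diets called 3 of 37 (8.11%, background 12.7%), Zeb2, Chn1 and Sox6. All of them fell, and their lncRNAs were also called lower for the average. Zeb2 and Zeb2os were called on different diets, and neither passed the interaction test. For 35 pairs with both genes tested, the cold effect of the lncRNA was set against that of the partner by permuting the temperature labels within each diet in all 400 ways. In 20 pairs both effects had the same sign and in 15 the opposite one. The exact permutation p, not adjusted over the 35 pairs, was under 0.05 in 9.

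In 4 of the 9 the cold effect of the lncRNA was above that of its partner, namely Ctcflos by 1.16 (exact p = 0.005), Ppp1r18os, Tmem74bos and Mccc1os (by 0.31, exact p = 0.03, with changes of -0.09 for Mccc1os and -0.40 for Mccc1). In the other 5 it moved below, with -0.79 for Sp3os, -1.07 for Tmem147os (exact p = 0.005), -1.16 for Atad3aos (exact p = 0.015), -1.62 for Hectd2os (exact p = 0.02) and -0.47 for Man2c1os (exact p = 0.03). In the cold Tmem147 rose (averaged log2FC 0.46, adjusted p = 0.00123) and so did Atad3a (0.38, adjusted p = 0.00801), both under the minimum fold. Their lncRNAs did not pass, with -0.81 for Tmem147os (adjusted p = 0.28) and -0.97 for Atad3aos (adjusted p = 0.0989). Tmem147os had 0 to 7 counts in HFD libraries and Atad3aos 4 to 17 over all libraries. Without their highest group Tmem147os held 74 counts, Atad3aos 83 and Tmem74bos 98, under the limit by which the lncRNAs were chosen. That group was NCD at 22 °C for Tmem147os, HFD at 22 °C for Atad3aos and HFD at 4 °C for Tmem74bos. All of them are among the 9 pairs, so this number does not support a statement about the lncRNAs as a group. Another gene bears the name Atad3aos joined with a second, and how reads were divided between both was not tested. Paired by replicate number, the permutation has 64 arrangements and a smallest p of 0.03125, which Ctcflos, Ppp1r18os, Sp3os, Tmem147os and Atad3aos reached. The exact p was then 0.0625 for Hectd2os and Tmem74bos and 0.09375 for Mccc1os and Man2c1os. The same 5 pairs, with Tmem147os and Atad3aos among them, stayed under 0.05 in each of the 12 permutation tests that left out a library. Hectd2os, Tmem74bos and Man2c1os did so in 7 and Mccc1os in 5. The 5 libraries whose absence raised the p were all of HFD 22 °C with HFD 4 °C replicates 1 and 2 for Hectd2os, all of HFD 22 °C with NCD 22 °C replicate 2 and NCD 4 °C replicate 3 for Tmem74bos, and replicates 2 and 3 of NCD 22 °C and HFD 4 °C with HFD 22 °C replicate 3 for Man2c1os. For Mccc1os it was every library except NCD 22 °C replicates 2 and 3, NCD 4 °C replicate 2, HFD 22 °C replicate 2 and HFD 4 °C replicate 1. The exact p of these pairs then reached at most 0.08, 0.06, 0.06 and 0.1.

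**Figure D4:**
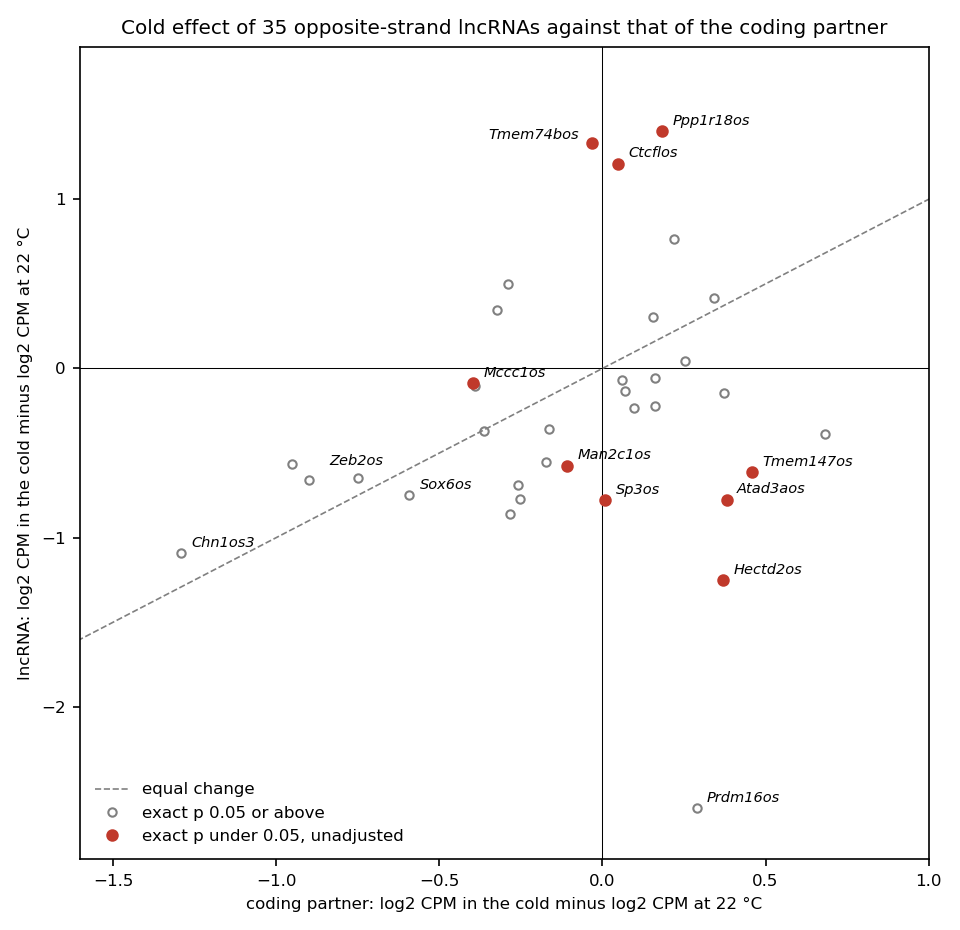
Change of log2 CPM from 22 °C to 4 °C, averaged over the diets, of 35 lncRNAs (y axis) against that of the coding partner (x axis), with a dashed line where both are equal and the 9 pairs with an exact p under 0.05 filled. Ctcflos, Ppp1r18os and Tmem74bos lie above partners with changes near 0, Sp3os lies below such a partner, and Sox6os, Zeb2os and Chn1os3 lie near the line with partners that fell.

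By arrangement, cold averaged over the diets called 3 of 14 tested lncRNAs with 5′ ends 1 kb or less from the partner (Map2k3os, Lppos and Man2c1os), 7 of 23 that overlapped it otherwise and 1 of 5 without overlap (Tmem74bos). The background was 12.7% of all tested genes and 11.9% of tested lncRNA genes. Tmem74bos was among the lncRNAs described because of the group in which it was high. Differences between the arrangements were not tested. Signs of lncRNA and partner were the same in 6 of 12, 12 of 19 and 2 of 4 pairs of these arrangements. The remaining 28 tested lncRNAs were not called in any comparison of single diets or temperatures or their averages.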

How the data were processed

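Total RNA of iBAT was sequenced from 3 mice in each of 4 groups, and groups were taken from the sample labels. The authors trimmed reads with cutadapt and quantified them with salmon against GENCODE M22 joined with RNAcentral 5 (GRCm38). The table the authors deposited gives estimated counts without normalisation. Whether strand was used is not given in the sources used here. They were rounded to whole numbers, and 0 columns belonged to other samples. Genes kept by filterByExpr were scaled with TMM and tested with the quasi-likelihood test of edgeR 4.0.16 (limma 3.58.1, R 4.3.3) in 1 model of 4 groups, with Benjamini-Hochberg adjustment over all genes tested. DESeq2 1.42.0 was an alternative. The script was tested on simulated data. P-values measure the spread between libraries, and a count of 0 allows up to 3. Differences between lncRNA and partner were tested with a two-sided exact permutation test, unadjusted. Members and gene lists were chosen with earlier results of these data known, and leaving out the libraries rich in muscle transcripts was chosen after seeing the data. lncRNAs were described in full where they were among the 12 largest called changes or the 5 highest counts, and others named were chosen after their values were seen. Same-numbered replicates correlated within NCD (0.219, 0.456 and 0.281) and within HFD (0.155, 0.217 and 0.386), and across diets from -0.214 to 0.365, so they were paired within diet in an alternative. The pairing rests on these correlations alone. The highest within each diet, 0.456 for replicate 2 on NCD and 0.386 for replicate 3 on HFD, belonged to the libraries rich in muscle transcripts. Replicate 3 was also the second batch. The part of muscle and batch in these correlations, and so in the passes gained by pairing, was not tested. Coordinates came from GENCODE M21 and start regions from RefSeq. 1 gene is not reported here.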

Additional observations from a re-analysis of the deposited data

Results flagged for a closer look

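Fbxl12os was flagged because in CPM every cold library lay above every library at 22 °C on NCD and below on HFD. The temperatures did not overlap for 27.9% of all tested genes on NCD and for 30% on HFD. Its counts were 3, 13 and 26 in NCD at 22 °C, 17, 19 and 35 in NCD at 4 °C, 14, 19 and 37 in HFD at 22 °C and 13, 20 and 36 in HFD at 4 °C. The cold log2FC was 0.84 ± 0.41 on NCD (adjusted p = 0.263) and -0.35 ± 0.40 on HFD (adjusted p = 0.604). The difference of Fbxl12os between the diets was -1.19 ± 0.57 and did not pass the edgeR interaction test (adjusted p = 0.783).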

How the results depend on the processing

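Of 25 calls of single lncRNAs, 0 changed direction under any alternative, 10 held in all 12 fits that left out a library and 15 were lost in at least 1. Without the 4 libraries rich in muscle transcripts 10 of the 25 remained, and in the first batch alone 8. With the muscle list as a term 19 remained. Counts of lncRNAs called that moved by more than 1.5 times follow, smaller moves are not, and a count can include lncRNAs not called before. Series of 7 values are in the order cold on NCD, cold on HFD, cold averaged, HFD at 22 °C, HFD at 4 °C, HFD averaged and 4 groups. Shares of all genes under the same setting, given above, were computed only for DESeq2 (cold and 4 groups) and for the block within diet. Under the other settings it was not tested whether the lncRNAs moved with all genes. DESeq2 gave 5 for cold on NCD, 9 for cold on HFD, 2 for HFD at 22 °C and 6 for 4 groups. Without a filter on low counts there were 1 for cold on NCD, 7 for cold averaged, 3 for HFD averaged and 2 for 4 groups. The first batch alone gave 1, 2, 7, 0, 1, 3 and 0. A muscle term gave 1 for cold on NCD, and leaving out the 4 muscle-rich libraries 1 for cold on NCD and 0 for 4 groups. Counting genes typed lncRNA only gave 0, 1, 1, 0, 1, 1 and 0, which leaves out those typed noncoding, such as Ctcflos. A minimum sum of 240 counts gave 1 for HFD at 4 °C. With the replicate block HFD at 22 °C gave 2 and HFD at 4 °C 1, and with the block within diet cold on HFD gave 7, while pairing changed no other call than those given above. With no minimum fold 7 of 37 partners were called for cold averaged, beside 3539 of all 16737 tested genes. With 1 library left out the counts were 1 to 3, 1 to 5, 6 to 10, 0 to 2, 0 to 2, 2 to 5 and 0 to 1, with 3 to 5 partners and 6 to 10 pairs. The causes were not tested. Most of these lncRNAs had few counts, which limits small changes, and 0 counts in a library allow up to 3.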
